A study of Mus musculus with 12 samples.

Results

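The integrin subunit genes examined here were Itga1, Itga3, Itga5, Itga6, Itga7, Itga11, Itgav, Itgb1, Itgb3 and Itgb5, chosen by symbol as subunits known from fibroblasts. All probes annotated to these 10 genes, of 19057 genes named on the array, were taken, which gave 22 of its 45281 probes. NIH-3T3 cells, an immortalised line of mouse embryonic fibroblasts, were measured on Illumina bead arrays in 3 groups of 4 arrays. U17_KD was a stable clone labelled ShSnhg3. Its name points to a short hairpin RNA aimed at Snhg3, whose introns carry the small nucleolar RNA U17. U17_OE was a stable clone labelled pMDβglobinU17b, and WT was the unmodified line. All 3 groups were grown for 24 hours in LPDS medium, an abbreviation commonly used for lipoprotein-deficient serum. Each manipulated group is 1 clone, no clone with an empty construct was analysed here, and 0 probes carry the names Snhg3, Snora73a or Snora73b, so the level of U17 was not checked and an effect of U17 and a property of the clone cannot be told apart. The arrays are labelled biological replicates, and the labels do not say whether they came from separate cultures.

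Integrins are cell surface receptors made of 1 alpha and 1 beta subunit, which tie the extracellular matrix to actin through talin, kindlin and other proteins at their short cytoplasmic tails. The alpha subunit largely sets the ligand: Itga1 and Itga11 encode subunits of collagen receptors, Itga3, Itga6 and Itga7 of laminin receptors, and Itga5 and Itgav of receptors that read the RGD motif of fibronectin and vitronectin. Itgb1 encodes the common partner of most of these alpha subunits, while the products of Itgb3 and Itgb5 pair with the Itgav product.

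A probe was counted as detected on an array where its normalized intensity reached 30.5, and probes detected on at least 4 of the 12 arrays were kept for testing. Between 15820 and 15832 probes were detected per array, near-equal because 1 level was applied to normalized arrays whose quartiles are near-equal. By deposited detection p-values under 0.05, the WT arrays had 15140 to 16182 probes. Of the integrin probes 13 of 22 were kept, for 7 genes. The other 9 probes, which include all probes of Itga1, Itga7 and Itgb3 and further probes of Itga6, Itga11 and Itgav, stayed at or below an intensity of 26.4 on all 12 arrays and were not tested. Fibroblast markers were present: of 14 genes, 13, 12 and 13 were detected on all 4 arrays of U17_KD, U17_OE and WT, and only Fap was detected on none. Their summed intensity was 84204 to 92985 in U17_KD, 55543 to 62104 in U17_OE and 57048 to 64734 in WT. Of 7 skeletal muscle markers, Myod1, Myf5, Ckm and Tnnt3 were detected on no array, and 0, 0 and 1 on all 4 arrays of U17_KD, U17_OE and WT. Their summed intensity was 71.5 to 103 in U17_KD, 55.2 to 79.3 in U17_OE and 169 to 216 in WT. Of 6 adipocyte markers, Adipoq, Pparg, Fabp4, Plin1 and Cebpa were detected on no array, and 0 on all 4 arrays of any group. The summed intensity of these 6 was 50.1 to 68.0 in U17_KD, 34.5 to 44.6 in U17_OE and 32.9 to 65.4 in WT. Of 7 endothelial markers, Pecam1, Cdh5, Tek, Tie1 and Emcn were detected on no array, 1, 0 and 0 were detected on all 4 arrays of U17_KD, U17_OE and WT, and the summed intensity was 133 to 182 in U17_KD, 41.0 to 111 in U17_OE and 54.9 to 77.7 in WT. Of 6 epithelial markers, Epcam, Krt18 and Cldn4 were detected on no array, 0, 2 and 3 were detected on all 4 arrays of U17_KD, U17_OE and WT, and the summed intensity was 63.2 to 106 in U17_KD, 102 to 170 in U17_OE and 127 to 189 in WT. Of 7 leukocyte markers, Ptprc, Adgre1, Itgam, Itgb2 and Tyrobp were detected on no array and Cd14 on all 12. On all 4 arrays of U17_KD, U17_OE and WT, 2, 1 and 1 of them were detected. The summed intensity was 502 to 558 in U17_KD, 641 to 808 in U17_OE and 446 to 555 in WT. The part of these marker levels in the integrin results was not tested. Of the 12 arrays U17_OE replicate 3 differed most from the others of its group, its log2 values having an SD of 0.393 about those of its group mates, where the remaining arrays had 0.182 to 0.273.

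Of the 7 integrin genes tested, 2 were higher and 2 lower in U17_KD than in WT, 1 was higher and 1 lower in U17_OE than in WT, and 4 were higher and 1 lower in U17_KD than in U17_OE, counted on the probe with the highest mean of each gene (limma, Benjamini-Hochberg adjusted p under 0.05). Itga11 and Itgb5 rose in U17_KD, Itga3 and Itga5 fell there, and Itga3 fell further in U17_OE. Itga11 passed the filter only because of its U17_KD arrays, where it is high, so its place in the U17_KD counts is a description. Over all 9108 genes tested the same rule called 40.5% in U17_KD minus WT, 12.8% in U17_OE minus WT and 33.1% in U17_KD minus U17_OE. Over all 16706 kept probes the share was 37.3% in U17_KD minus WT, 11.5% in U17_OE minus WT and 30.1% in U17_KD minus U17_OE. The median log2 fold change of the 7 genes was 0.09 in U17_KD minus WT, against -0.02 over all genes, and -0.10 in U17_OE minus WT, against -0.01 over all genes. The comparisons with WT share the WT arrays, so their values are given side by side.

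**Figure D1:**
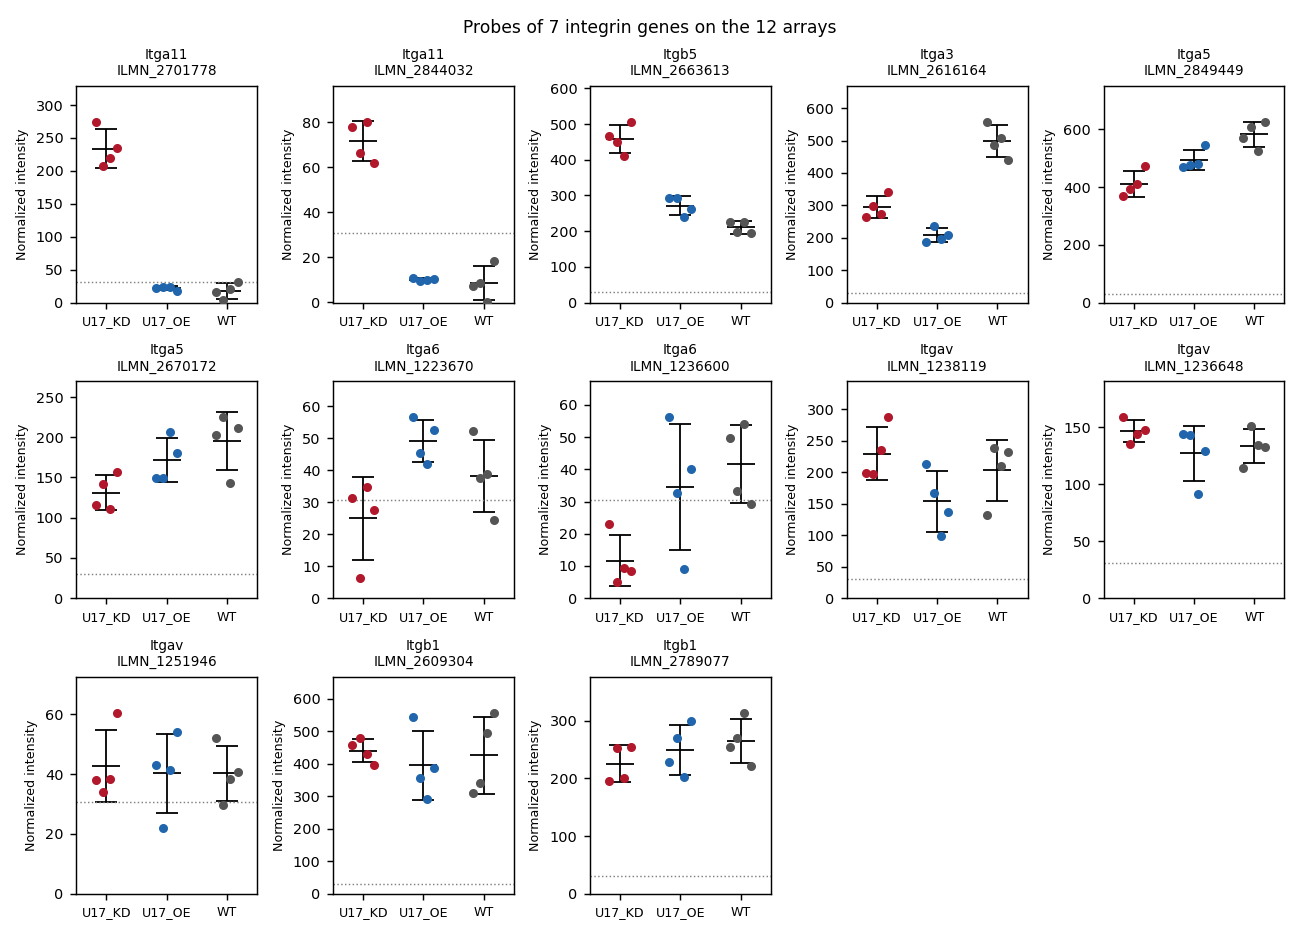
Normalized intensity (linear scale, arbitrary units) of the 13 kept probes of 7 integrin genes on each array of U17_KD, U17_OE and WT; points are arrays, bars the mean and SD over 4 arrays, and the dotted line the detection level of 30.5. The U17_KD arrays stand above the others for Itga11 and Itgb5, and both clones stand below WT for Itga3.

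The promoter windows of the 4 genes called in U17_KD are shown because these are the members that moved, in opposite directions, in the same cells. RefSeq windows of GRCm38.p6, running from 250 bases before to 50 bases after a start site, were at hand for 7 of the 10 genes (8 windows). They are printed 5′ to 3′ on the strand of the gene, with capitals marking the GC box, the letters GGGCGG on either strand.
Itga11, chr9:62677605-62677904, plus strand: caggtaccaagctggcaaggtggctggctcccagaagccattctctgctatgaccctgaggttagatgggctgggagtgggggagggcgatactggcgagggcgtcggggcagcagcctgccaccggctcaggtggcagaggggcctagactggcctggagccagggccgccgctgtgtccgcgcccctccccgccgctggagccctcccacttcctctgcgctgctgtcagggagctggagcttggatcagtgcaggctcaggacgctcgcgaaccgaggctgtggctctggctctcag
Itgb5, chr16:33829415-33829714, plus strand: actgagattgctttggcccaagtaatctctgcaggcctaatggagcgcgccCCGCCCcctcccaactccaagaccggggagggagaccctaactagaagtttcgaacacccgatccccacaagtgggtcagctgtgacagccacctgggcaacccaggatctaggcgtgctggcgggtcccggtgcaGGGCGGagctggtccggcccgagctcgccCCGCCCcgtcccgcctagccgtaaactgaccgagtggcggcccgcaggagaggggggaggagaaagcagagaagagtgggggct
Itga3, chr11:95076665-95076964, minus strand: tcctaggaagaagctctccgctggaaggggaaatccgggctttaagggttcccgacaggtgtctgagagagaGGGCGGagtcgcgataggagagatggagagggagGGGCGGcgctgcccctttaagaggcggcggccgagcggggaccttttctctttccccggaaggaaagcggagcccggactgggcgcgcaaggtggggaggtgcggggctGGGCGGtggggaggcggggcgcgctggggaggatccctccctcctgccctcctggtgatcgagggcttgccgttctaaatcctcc
Itga5, chr15:103366742-103367041, minus strand: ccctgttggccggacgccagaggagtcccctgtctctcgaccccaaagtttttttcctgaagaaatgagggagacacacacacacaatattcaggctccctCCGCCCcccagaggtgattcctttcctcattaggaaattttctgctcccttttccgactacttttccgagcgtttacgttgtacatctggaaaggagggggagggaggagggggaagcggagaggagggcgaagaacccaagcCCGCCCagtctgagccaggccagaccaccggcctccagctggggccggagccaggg
The window of Itga11 held 0 GC boxes, that of Itgb5 held 3, that of Itga3 held 3 and that of Itga5 held 2, while 35.7% of 32851 RefSeq windows of this length held at least 1. Their GC content was 68.0%, 65.7%, 66.7% and 58.7%, against a median of 52.7% over all windows. None of these 4 windows held a CCAAT box (CCAAT, found in 37.4% of windows), a TATA box (TATAAA, 13.6%), an AP-1 motif (TGANTCA, 7.81%), a TEAD motif (GGAATG, 14.7%) or a CArG box (1.63%), all searched on both strands, and no matches of different motifs overlapped. A second start site of Itga3 has its own window, not printed, with 1 GC box, 1 CCAAT box and 1 AP-1 match. Of the 2 genes that rose in U17_KD, Itga11 had 0 GC boxes and Itgb5 had 3.

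Among the collagen receptor subunits, Itga11 showed the largest difference of the 7 genes. Its brighter probe, ILMN_2701778, had intensities of 274, 207, 219.8 and 235 in U17_KD, against 21.7, 23.9, 24.3 and 17.02 in U17_OE and 15.6, 3.12, 20.2 and 31.7 in WT. Every U17_KD array lay above every array of the other groups, and the U17_OE and WT ranges overlapped. The log2 fold change of U17_KD minus WT was 2.73 ± 0.15 SE (limma adjusted p = 9.41e-11), where 1 of 4 WT arrays reached the detection level and 0 of 4 had a detection p-value under 0.05, so its size rests on WT values near the background. Against U17_OE, where 0 of 4 arrays detected it, the probe was at least 5.31-fold higher in U17_KD (adjusted p = 2.45e-10). A second probe, ILMN_2844032, had 78.0, 66.3, 80.1 and 61.8 in U17_KD, 10.7, 9.32, 9.84 and 10.3 in U17_OE and 7.14, 8.39, -0.09 and 18.2 in WT. It was detected on U17_KD arrays only. Both kept probes passed the filter only because of those arrays, where they are high, so their p-values are a description. The second probe was at least 1.85-fold higher in U17_KD than in WT (limma adjusted p = 3.20e-07). It was also at least 1.85-fold higher than in U17_OE (adjusted p = 6.22e-07). Such folds are lower bounds, taken against the lowest detected signal or the dim probe's own, whichever is higher. The remaining probe of Itga11, ILMN_2603054, was detected on no array. U17_OE and WT did not differ beyond their spread at either kept probe, with differences of 0.09 (95% interval -0.23 to 0.41) and 0.03 (-0.28 to 0.33). Itga1, which encodes the other collagen receptor subunit, was not detected: its 2 probes ranged from -17.5 to 6.50 over the 12 arrays.

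Among the beta subunits, Itgb5, whose product joins the Itgav product in a vitronectin receptor, was highest in U17_KD. Its only probe, ILMN_2663613, had 465, 449, 411 and 506 in U17_KD, 292, 294, 239 and 263 in U17_OE and 225, 197, 225 and 194 in WT. The 3 ranges did not overlap, and the order of the levels was U17_KD, U17_OE, WT. It rose by 1.07 ± 0.11 SE on the log2 scale in U17_KD (2.10-fold, limma adjusted p = 2.26e-07) and was higher in U17_KD than in U17_OE by 0.72 ± 0.11 (adjusted p = 3.82e-05). The rise in U17_OE over WT was small, 0.35 ± 0.11 (1.27-fold, adjusted p = 0.0400), and its call was lost under 13 of 23 alternatives, with adjusted p from 0.00835 to 0.118. Leaving out U17_KD replicate 1, 2 or 4, U17_OE replicate 1, 2 or 4 or any 1 WT array ended it, as did the replicate block (adjusted p = 0.0853).

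Itgb1, the shared beta subunit, passed the test in no comparison. Its brighter probe, ILMN_2609304, had 458, 479, 429 and 396 in U17_KD, 543, 357, 292 and 388 in U17_OE and 310.4, 339, 496 and 557 in WT. The WT and U17_OE arrays were spread widely, and all 3 ranges overlapped. The differences were 0.09 in U17_KD minus WT (95% interval -0.29 to 0.46) and -0.10 in U17_OE minus WT (-0.47 to 0.28), intervals that leave room for changes of about the size seen for Itgb5 in U17_OE. A second probe, ILMN_2789077, had narrower spread, with -0.22 (-0.51 to 0.07, adjusted p = 0.233) in U17_KD and -0.08 (-0.37 to 0.20) in U17_OE. Itgb3, which encodes the beta subunit that joins the Itgav product in a receptor known from platelets and osteoclasts as well as fibroblasts, had 1 probe, which ranged from -11.0 to 26.4 and was detected on no array.

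Among the laminin receptor subunits, Itga3 fell in both clones. Its only probe, ILMN_2616164, had 263, 297, 275 and 341 in U17_KD, 188, 237, 196 and 208 in U17_OE and 558, 487, 508 and 439 in WT. The 3 ranges did not overlap, and the order of the levels was WT, U17_KD, U17_OE. It fell by 0.73 ± 0.11 SE on the log2 scale in U17_KD (limma adjusted p = 4.09e-05) and by 1.21 ± 0.11 in U17_OE (adjusted p = 8.24e-07), a 1.66-fold and a 2.31-fold change. The difference between the clones was itself called, with U17_KD higher than U17_OE by 0.47 ± 0.11 (adjusted p = 0.00344). These 3 calls held in all 23 alternatives, with log2 fold changes from -0.80 to -0.67 in U17_KD minus WT, from -1.27 to -1.09 in U17_OE minus WT and from 0.40 to 0.53 between the clones.

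Itga6, of the same ligand class, lay near the detection level. Probe ILMN_1223670 had 31.4, 6.11, 34.6 and 27.5 in U17_KD, 56.5, 45.3, 41.9 and 52.5 in U17_OE and 52.1, 37.5, 38.7 and 24.3 in WT. Its U17_KD range lay wholly below that of U17_OE (-0.59 ± 0.18, adjusted p = 0.0183; -0.44 and adjusted p = 0.0768 without U17_KD replicate 2) and overlapped that of WT (-0.33 ± 0.18, adjusted p = 0.171). Probe ILMN_1236600 had 23.1, 5.03, 9.47 and 8.55 in U17_KD, 56.1, 32.8, 9.05 and 40.2 in U17_OE and 49.8, 33.3, 54.1 and 29.3 in WT. Detected on 0 U17_KD and 3 WT arrays, it fell in U17_KD relative to WT (-0.75 ± 0.22, limma adjusted p = 0.0101), with a lower bound of 1.21-fold. In U17_KD minus U17_OE this probe had -0.57 ± 0.22 (limma adjusted p = 0.0526), with ranges that overlap, against -0.59 at the other probe. The probes of Itga6 thus differed in which comparison was called, though the differences of U17_KD from WT and from U17_OE were negative at both. Itga7, which encodes a laminin receptor subunit best known from skeletal muscle, had 2 probes that ranged from -18.4 to 19.0 and was detected on no array.

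Among the subunits of RGD receptors, Itga5, whose product forms the main fibronectin receptor of fibroblasts with the Itgb1 product, fell in U17_KD at both of its probes. Probe ILMN_2849449 had 368, 394, 410.3 and 472 in U17_KD, 471, 475, 480.2 and 545 in U17_OE and 571, 607, 526 and 626 in WT. The U17_KD arrays lay below all WT arrays, with U17_OE between and overlapping both. The fall in U17_KD was 0.49 ± 0.10 SE on the log2 scale (limma adjusted p = 0.000699), and U17_OE minus WT was -0.23 ± 0.10 (adjusted p = 0.151). Probe ILMN_2670172 had 116, 142, 111 and 156 in U17_KD, 149.7, 149.7, 206 and 181 in U17_OE and 203, 225, 144 and 211 in WT. It fell by 0.52 ± 0.15 in U17_KD (adjusted p = 0.0102), with 1 WT array inside the U17_KD range, and had -0.17 ± 0.15 in U17_OE (adjusted p = 0.547). The difference between the clones was -0.26 at the brighter probe (95% interval -0.46 to -0.05, adjusted p = 0.0598) and was called without U17_KD replicate 4 (-0.32), without U17_OE replicate 3 (-0.27) and with array weights (-0.28).

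Itgav, the alpha subunit of the vitronectin receptors, passed no test against WT at its 3 kept probes. The brightest, ILMN_1238119, had 199, 197, 235 and 287 in U17_KD, 213, 167, 98.4 and 137 in U17_OE and 131, 239, 210.2 and 231 in WT. WT replicate 1 and U17_OE replicate 3 were the lowest of their groups, and all ranges overlapped. U17_KD minus WT was 0.18 (95% interval -0.24 to 0.60) and U17_OE minus WT -0.38 (-0.80 to 0.04). U17_KD was called higher than U17_OE at this probe (0.57 ± 0.20, adjusted p = 0.0390), but not without U17_OE replicate 3 (0.39), U17_OE replicate 4 (0.53), U17_KD replicate 3 (0.55) or U17_KD replicate 4 (0.46), and neither of the other kept probes was called (0.20 and 0.06). Its remaining 2 probes were detected on no array.

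**Figure D2:**
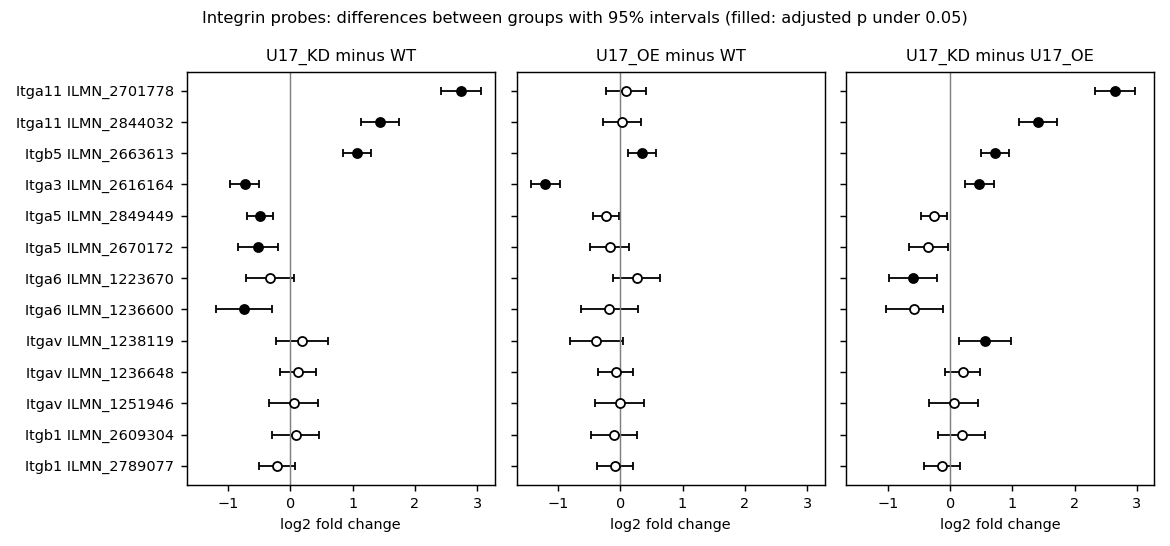
Log2 fold changes (x axis) with 95% intervals of the 13 kept integrin probes (rows) in U17_KD minus WT, U17_OE minus WT and U17_KD minus U17_OE, from limma on 12 arrays; filled points have an adjusted p under 0.05. Itga11 and Itgb5 lie right of 0 and Itga3 and Itga5 left of 0 in U17_KD minus WT, and Itga3 lies farther left in U17_OE minus WT.

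By a rule on the spread of their group means, Itga11 (range of means 2.73 on the log2 scale), Itga3 (1.21) and Itgb5 (1.07) were compared with the other 9107 genes for likeness of profile, as the root mean square difference over the 12 arrays between log2 values centred on each gene's mean. The nearest to Itga11 were the homeobox gene Rhox5 (0.20), the zinc finger gene Tshz3 (0.20) and Prorsd1 (0.21), against a median of 1.30 over all genes, and they rose in U17_KD by 2.80, 2.91 and 2.46. The nearest to Itga3 were Lama2 (0.17), which encodes the laminin alpha2 chain, Ciart (0.19), which encodes a circadian transcriptional repressor, and Edil3 (0.19), which encodes a secreted ligand of Itgav receptors, against a median of 0.56. Ciart had -0.91 in U17_KD and -1.02 in U17_OE against WT. Lama2 had -0.67 and Edil3 -0.86 in U17_KD, where 1 and 2 of 4 arrays detected them, and both were detected on 0 of 4 U17_OE arrays, so only bounds are given for U17_OE, with the matrix ligands. These genes were picked for their likeness over the same arrays, so their differences are a description. The nearest to Itgb5 were Mylk (0.09), which encodes myosin light chain kinase, 4930533K18Rik (0.10) and Ppm1e (0.10), a protein phosphatase gene, against a median of 0.51. They were higher in U17_KD by 1.12, 1.07 and 1.15. The arrays compared are those of 3 groups, so the measure follows the group means.

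**Figure D3:**
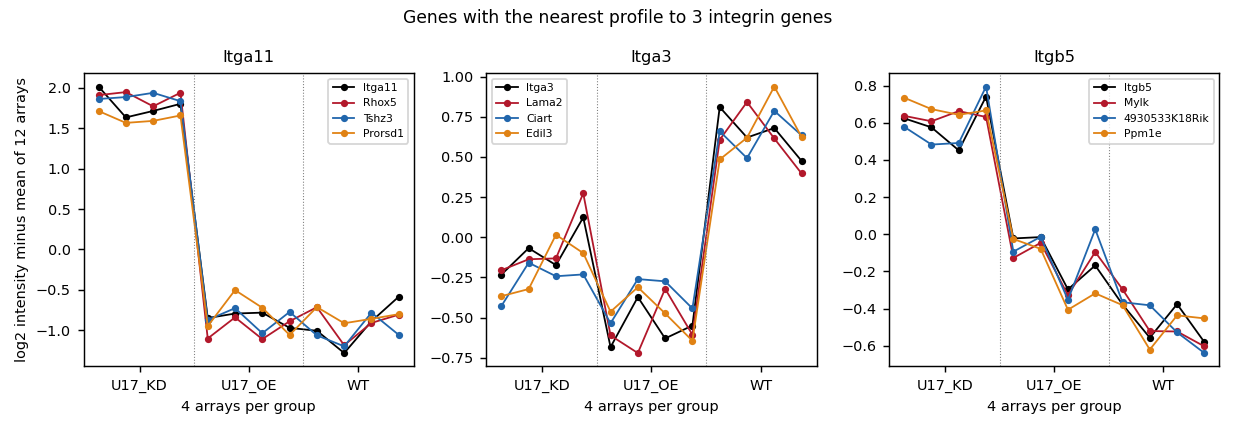
Log2 intensity of Itga11, Itga3 and Itgb5 and of the 3 genes with the nearest profile to each, minus each gene's mean over 12 arrays (y axis), with the 4 arrays of U17_KD, U17_OE and WT side by side. The profiles of Itga11 and its neighbours are high in U17_KD alone, those of Itga3 and its neighbours are high in WT, and those of Itgb5 step down over the 3 groups.

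Of 16 integrin subunit genes outside the 10, 15 were on the array and 4 had a kept probe. Itgb7, which encodes a beta subunit of lymphocyte integrins, fell in U17_KD: its intensity was 136 to 159 there (median 141), against 463 to 703 in U17_OE (median 499) and 575 to 687 in WT (median 580.4). The fall was 1.96 ± 0.12 SE on the log2 scale (3.90-fold, limma adjusted p = 3.66e-10), and U17_OE minus WT was -0.17 ± 0.12 (adjusted p = 0.419, and 0.0352 without U17_OE replicate 3). Itga2b, which encodes the platelet alpha subunit, had 0.48 ± 0.17 in U17_KD minus WT (adjusted p = 0.0325), and Itgb4, which encodes the beta subunit of hemidesmosomes, 0.52 ± 0.19 (adjusted p = 0.0437). Neither was called without U17_KD replicate 1, 2 or 4 or WT replicate 2 or 3, and Itgb4 also not without WT replicate 4 or U17_OE replicate 4, and intensities of both stayed below 86. Itga8 was not called (0.19 in U17_KD and 0.29 in U17_OE against WT). In U17_KD minus WT limma called 3 of these 4 genes, against 40.5% over all genes. In U17_OE minus WT it called 0 of these 4 genes, 0 of them at an unadjusted p under 0.05, against 12.8% called over all genes. Of the leukocyte markers, Ptprc, Adgre1, Itgam, Itgb2 and Tyrobp were detected on no array and Cd14 on every array. The part of other cells in the level of Itgb7 was not tested.

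Proteins of the adhesion complex inside the cell showed 3 higher and 9 lower of 30 genes tested in U17_KD (median log2 fold change -0.07, against -0.02 over all genes, of which 20.0% were called higher and 20.4% lower). The 9 include Tns3, whose probes disagree. Tns1, which encodes tensin 1, rose by 0.91 ± 0.14 SE (limma adjusted p = 5.05e-05) and Kank1, which encodes a talin-binding protein at the rim of adhesions, rose by 0.73. Falls were seen for Src, the kinase (-0.74), Lims2, which encodes a partner of integrin-linked kinase (-0.74, detected on 1 of 4 U17_KD arrays and with ranges that overlap WT), and Actn4, which encodes an alpha-actinin (-0.67). Lims2 passed the filter only because of its WT arrays, where it is high, so its fall and its place among the 9 are a description. A second kept probe of Src was not called (-0.36). In U17_OE 0 were higher and 3 lower (background 6.48% higher and 6.37% lower), namely the tensin gene Tns3 (-0.54, with its 2 other kept probes at -0.04 and -0.09 and not called), the alpha-actinin gene Actn1 (-0.38) and Itgb1bp1, whose product restrains beta1 integrins (-0.26, and -0.21 without a call at its other kept probe). Actn1 and Itgb1bp1 were no higher in U17_KD. Mean intensity of Actn1 was 6270 in U17_KD, 6891 in U17_OE and 8931 in WT, and that of Itgb1bp1 was 1828, 1849 and 2210. The call of Itgb1bp1 in U17_OE (limma adjusted p = 0.0445) was lost in 14 of 23 alternatives, with adjusted p up to 0.138 and 0.0914 with the replicate block. Leaving out any 1 U17_KD array, U17_OE replicate 1, 2 or 4 or WT replicate 1, 3 or 4 ended it. Of the 2 other kept probes of Tns3, both were called in the opposite direction in U17_KD minus WT (0.81 and 0.98, against -0.26), so no direction is given for Tns3 there. The talin genes Tln1 (0.05 in U17_KD, -0.11 in U17_OE) and Tln2 (0.05 and -0.04) and vinculin, Vcl (0.12 and 0.03), were not called.

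Surface partners of integrins, such as tetraspanins and syndecans, were higher for 10 and lower for 6 of 27 in U17_KD (median 0.09, against -0.02 over all genes, of which 20.0% were called higher and 20.4% lower). Cd9, a tetraspanin gene, had 12093 to 12922 in U17_KD, against 6465 to 7018 in WT, and rose by 0.90 ± 0.07 SE (limma adjusted p = 5.13e-09). Plaur, which encodes the urokinase receptor, fell in both clones, by 1.53 in U17_KD and 0.71 in U17_OE. Sdc3, which encodes the heparan sulfate proteoglycan syndecan 3, went opposite ways: it had 291 to 350.3 in U17_KD, 1097 to 1520 in U17_OE and 714 to 877 in WT, with no overlap between the groups, and log2 fold changes against WT of -1.29 in U17_KD and 0.78 in U17_OE. Pdgfrb, the PDGF receptor gene (1.07), and Cav1, which encodes caveolin (0.70), were also higher in U17_KD. Pdgfrb, Thy1 and Ddr2 are also on the fibroblast marker list, whose summed level was higher in U17_KD, and its part in the count was not tested. In U17_OE 1 gene was higher and 2 were lower, the last of them Cd44, the hyaluronan receptor gene (-0.34, adjusted p = 0.0489, not called at 2 of its 3 other kept probes). Log2 intensity of Cd44 was lowest in U17_KD, 11.99 to 12.40, against 12.37 to 12.88 in U17_OE and 12.78 to 13.12 in WT. The call of Cd44 was lost in 14 of 23 alternatives, with adjusted p up to 0.165 and 0.0825 with the replicate block. Leaving out U17_KD replicate 1, 3 or 4, U17_OE replicate 2, 3 or 4 or WT replicate 2, 3 or 4 ended it. Over all genes 12.8% were called in U17_OE, a share near that of these 3 of 27. The count was 9 without U17_OE replicate 3.

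Of 25 matrix ligand genes tested, 17 were higher and 4 lower in U17_KD (median 0.64, against -0.02 over all genes, of which 40.5% were called), and 3 were higher and 5 lower in U17_OE (median 0.00, against -0.01 over all genes, of which 12.8% were called). Col1a1, Col1a2, Col3a1, Col5a1 and Fn1 are also on the fibroblast marker list, whose summed level was higher in U17_KD too; its part in the count was not tested. The collagen genes Col1a1 and Col3a1 rose in U17_KD by 1.65 ± 0.17 SE (limma adjusted p = 5.39e-07) and 1.46 ± 0.23, and Nid2, which encodes a basement membrane nidogen, by 1.22. Tnc, which encodes tenascin C, had 441 to 495 in U17_KD, against 970 to 1365 in WT, and fell by 1.18 ± 0.13. Tgfbi, which encodes a secreted matrix protein that integrins bind, was detected on 4 WT arrays (82.2 to 121) and on none of either clone, and was at least 2.43-fold lower in both (adjusted p = 6.73e-10 in U17_KD and 7.60e-09 in U17_OE). Lama2 and Edil3, named above for their likeness to Itga3, were detected on 4 WT arrays each and on no U17_OE array, and were at least 1.64-fold and 1.72-fold lower in U17_OE. Tgfbi, Lama2 and Edil3 passed the filter only because of their WT arrays, and Ccn3 only because of its U17_KD arrays, where each is high. Their p-values, folds and places in the counts and medians of this list are therefore a description. Thbs2, which encodes thrombospondin 2, rose in U17_OE by 0.61, a call that held in all 23 alternatives. Col6a2, a collagen VI gene, had 0.67 in U17_OE (limma adjusted p = 0.0140), with ranges that overlap WT, and was not called with only the groups compared (0.0521), without U17_OE replicate 4 (0.0556) or without WT replicate 3 (0.0582). Thbs2 and Col6a2 were both highest in U17_KD. Mean intensity of Thbs2 was 10665 in U17_KD, 9013 in U17_OE and 5820 in WT, and that of Col6a2 was 920, 671 and 406.

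**Figure D4:**
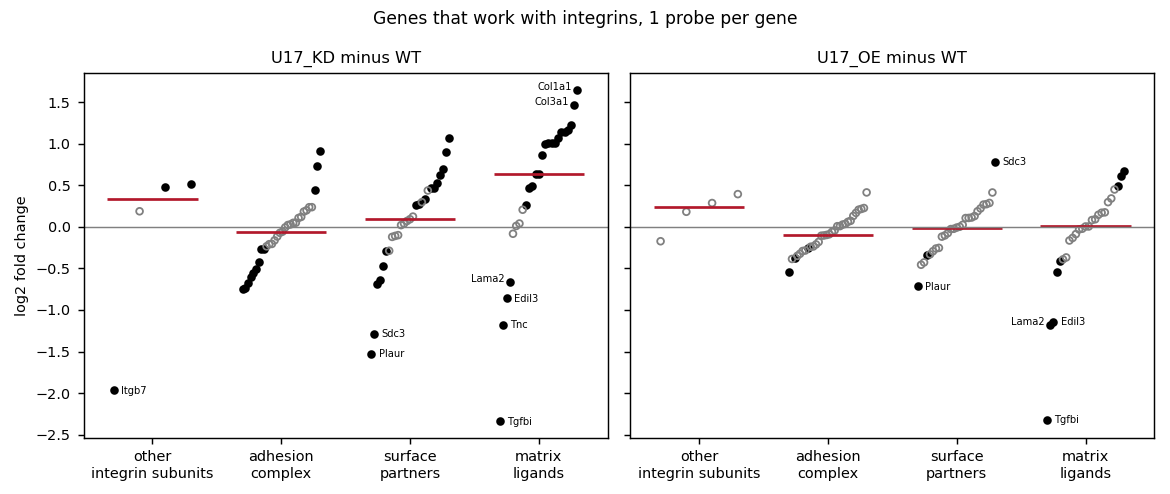
Log2 fold changes (y axis) of the tested genes of 4 lists (1 probe per gene) in U17_KD minus WT and U17_OE minus WT; filled points have a limma adjusted p under 0.05 and red lines are list medians. Matrix ligands lie mostly above 0 in U17_KD (median 0.64) and around 0 in U17_OE, with Tgfbi low in both clones.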

How the data were processed

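Total RNA of 12 NIH-3T3 samples was measured on Illumina bead arrays with a biotin label, through cDNA made with oligo-dT, per the labels' protocols. The authors deposited normalized probe intensity values, linear and with many below 0, and these were used for all arrays. GenomeStudio 2010 is named in the submitters' processing notes, and how the values were normalized is not stated in the labels or headers. Of the deposited table of intensity before normalization, the WT signals and detection p-values were used, and 40 of its 48 value columns were not, because their array names occur in no label.

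Groups were read from the sample titles. The detection level averages, across WT arrays, the smallest normalized value whose deposited detection p-value was under 0.05; whether it holds equally on clone arrays was not tested. Background mean (0.492) and SD (15.8), from the WT detection p-values, were used for normexp on every array, 16 was added and log2 taken. limma 3.58.1 (R 4.3.3) tested the differences in 1 model of 3 groups with 9 residual degrees of freedom and a mean-variance trend. P-values were two-sided and adjusted by Benjamini-Hochberg over all 16706 kept probes per comparison. Probes were named by the platform annotation, 34807 of 34885 single-symbol probes matched a RefSeq gene of GRCm38.p6, and the kept probe with the highest mean stands for a gene. With no replicate pairing in the labels beyond shared numbers, no block was used. The code was tested on simulated data. For U17_KD minus WT it called 47% of 100 planted log2 differences of 0.5 and 88% of 100 of size 1. Of 16506 probes with no planted difference it called 0.0485%. Few probes differed in the simulation, whereas 37.3% were called in U17_KD minus WT, so the adjustment was stricter there than in the data. The simulated shares are therefore not the sensitivity of the comparisons reported here. The number of arrays limits the precision.

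The integrin genes and the lists (other integrin subunits, adhesion complex, matrix ligands, surface partners, cell type markers) were chosen with earlier results of these data known. Named are all integrin genes, other kept subunits, per list and comparison with WT up to 5 called genes with the largest change that were detected on all arrays of a group, and the 3 nearest profiles of 3 integrin genes; others named were chosen after their values were seen.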

Additional observations from a re-analysis of the deposited data

Results flagged for a closer look

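For each named probe, the highest or lowest array of each group of 4 was set against the spread of its group, 141 groups in all. In 8 of them the array stood farther off than Dixon's 95% limit, which chance would pass in about 1 of 20 groups (log2 intensities are given). Among the integrin genes, U17_OE replicate 4 was high for Itga5 probe ILMN_2849449 (9.13, against 8.93 to 8.95 for its group mates). WT replicate 2 was high for Itgb7 (9.46, against 9.21 to 9.22). Actn4 was high on U17_KD replicate 4 (11.31), Actn1 low on U17_OE replicate 3 (12.52), Lama2 high on U17_KD replicate 4 (5.92), Plaur high on U17_OE replicate 2 (9.26) and on WT replicate 3 (9.78), and Pdgfrb low on U17_KD replicate 2 (7.73).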

How the results depend on the processing

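The 24 alternatives covered background, offset, filter, normalization, variance model, groups in the model, array weights, the replicate block, the probe of a gene and leaving out each array. Of 882 repeats of an integrin probe's difference, 834 kept direction and call, 21 lost the call, 8 gained it and 19 turned sign. Of 1045 repeats for other named genes, 67 lost the call, 1 gained it and 0 turned sign. All sign changes were in differences that were not called: Itga11 ILMN_2701778 (leave-one-out range -0.022 to 0.21), Itga11 ILMN_2844032 (-0.032 to 0.10, and -0.046 with no normexp), Itga6 ILMN_1236600 (-0.35 to 0.037), Itgav ILMN_1236648 (-0.14 to 0.056, and 0.038 with array weights), Itgav ILMN_1251946 (-0.12 to 0.15, and 0.00016 with an offset of 50), Itgb1 ILMN_2609304 (-0.26 to 0.041) and Itgb1 ILMN_2789077 (-0.17 to 0.0047) in U17_OE minus WT, Itgav ILMN_1251946 (-0.080 to 0.15) and Itgb1 ILMN_2609304 (-0.047 to 0.22) in U17_KD minus WT, and Itgav ILMN_1251946 (-0.10 to 0.17) in U17_KD minus U17_OE. For Itga11 ILMN_2701778 in U17_KD minus WT, called throughout, the log2 fold change ran from 1.98 to 3.53 with the background and offset settings.

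The integrin genes called in U17_OE minus WT, 2, were 1 with no filter on detection, with only the groups compared, with the replicate block, and 1 to 2 over the arrays left out; in U17_KD minus U17_OE, 5, they were 3 with probes detected on all 12 arrays, where fewer genes were tested. Other counts that moved by over 1.5 times were those of matrix ligands in U17_OE (8, and 5 with probes detected on all 12 arrays), surface partners in U17_OE (3, and 8 with array weights, 5 with the mean of the kept probes, 2 to 9 over the arrays left out), adhesion complex genes in U17_OE (3, and 2 to 5 over the arrays left out), other integrin subunits in U17_KD (3, and 1 to 3) and in U17_OE (0, and 0 to 1), and all probes in U17_OE (1925, and 1193 with only the groups compared, 1261 to 2981 over the arrays left out). Except for the smaller set of genes tested, the cause was not tested. The replicate numbers do not pair the arrays: deviations of same-numbered arrays correlated from -0.38 to 0.09 over 12 pairs, and 0 of 12 arrays correlated best with their own number. Arrays that differed in both group and number correlated from -0.22 to 0.43, and a factor shared by such arrays was not tested. The replicate block ended the calls of Itgb5, Itgb1bp1, Cd44, Mylk and 4930533K18Rik in U17_OE minus WT and of Itgav ILMN_1238119 in U17_KD minus U17_OE and brought that of Itga6 ILMN_1236600 between the clones. Probes near the detection level, those of Itga6 and of Itga11 outside U17_KD, have only bounds or wide intervals.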
